A study of Saccharomyces cerevisiae with 6 samples.

Results

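The zinc regulon of budding yeast was followed in a strain that carries dChr, an artificial chromosome that stores data, and in a control strain. The 10 genes were taken by their systematic names from a deposited table of 7554 transcripts and are the plasma membrane importers ZRT1 (YGL255W) and ZRT2 (YLR130C), the vacuolar transporters ZRT3 (YKL175W), ZRC1 (YMR243C) and COT1 (YOR316C), the secretory pathway transporter subunit ZRG17 (YNR039C), the regulator ZAP1 (YJL056C), and the zinc-responsive genes ZPS1 (YOL154W), ADH4 (YGL256W) and IZH2 (YOL002C). All 10 were in the table, and all 10 passed the filter of a mean of at least 1 TPM (a level corrected for transcript length and scaled to the same library total). RNA came from 3 libraries of strain yMH007, which contains dChr, and 3 of strain yMH104, whose plasmid is empty. Cells of either strain were kept at 30 °C in a synthetic medium that lacks uracil and were harvested at an optical density of 1.0 to 1.2. The sources used here give neither the zinc content of the medium nor the remaining genotype of the strains, and they do not say whether the libraries of a strain came from separate cultures. The p-values therefore measure the spread between these libraries, which may be technical.

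Zinc is needed by many enzymes and transcription factors but is toxic in excess, so yeast balances uptake at the cell surface against storage in the vacuole. The activator Zap1 senses the zinc of the cell. When zinc runs low it binds zinc-responsive elements in its target promoters, its own included, and raises uptake and the release of vacuolar zinc. COT1 is also a cobalt transporter and is not a classical Zap1 target.

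Zinc-responsive elements are shown first because they are what most of these promoters are known to share. The palindrome ACCTTNAAGGT, in which N is any base, was searched in the 500 bases before the start codon of each of 6000 protein-coding genes of the RefSeq R64 assembly, which is the sacCer3 build. It reads the same on both strands, so a search of either strand covers the other. An exact match lay before 9 genes (0.150%), among them ZRT1 and ZRG17, and a match with at most 1 mismatch before 118 genes (1.97%), among them 7 of the 10 zinc genes. The element was defined by others on promoters of this kind, so the matches describe the genes and are no test. Each sequence is given 5′ to 3′ along its gene's strand with the matching 11 bases in capitals.

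ZRT1, exact, chrVII:20764-20794, plus strand: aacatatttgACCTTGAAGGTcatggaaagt
ZRT1, upstream match, chrVII:20649-20679, plus strand: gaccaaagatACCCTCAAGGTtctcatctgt
ZRT2, upstream match, chrXII:404353-404383, minus strand: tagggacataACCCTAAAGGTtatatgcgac
ZRT2, downstream match, chrXII:404304-404334, minus strand: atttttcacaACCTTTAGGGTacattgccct
ZRT3, chrXI:118628-118658, plus strand: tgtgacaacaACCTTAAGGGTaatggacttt
ZRC1, chrXIII:756320-756350, minus strand: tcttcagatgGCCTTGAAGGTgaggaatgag
ZRG17, exact, chrXIV:699495-699525, minus strand: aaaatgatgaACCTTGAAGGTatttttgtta
ZAP1, chrX:333197-333227, minus strand: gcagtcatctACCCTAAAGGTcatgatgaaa
ZPS1, upstream match, chrXV:34319-34349, plus strand: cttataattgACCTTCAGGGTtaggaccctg
ZPS1, downstream match, chrXV:34334-34364, plus strand: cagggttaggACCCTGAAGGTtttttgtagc

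The mismatches were alike. Positions are counted from 1 at the 5′ end of the element, with the element's base first. Of the 8 matches with a mismatch, 4 carried T4C and 3 carried A8G, which are the same change read on opposite strands, and that of ZRC1 carried A1G. Over all promoters, 11 of 113 matches with a mismatch carried T4C or A8G (9.7%), and the zinc genes held 7 of these 11. Matches were counted per gene, so an element between genes that point away from each other can count for each. The element of ZAP1 also lies in the window of its neighbour LOG1, so these counts are not of distinct elements. The Zap1 target IZH1 is also among the genes with A8G. The element was defined on promoters of this kind, so the shared change is likewise a description and no test. The matches began between 84 bases (ZRG17) and 329 bases (ZPS1) before the start codon, and those of ZPS1 did not overlap each other. No match at this stringency was found in the windows of ADH4, IZH2 and COT1, which says only that these letters are not there. For ADH4 a match with 1 mismatch lies just beyond its window, within that of its left-hand neighbour.

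**Figure D1:**
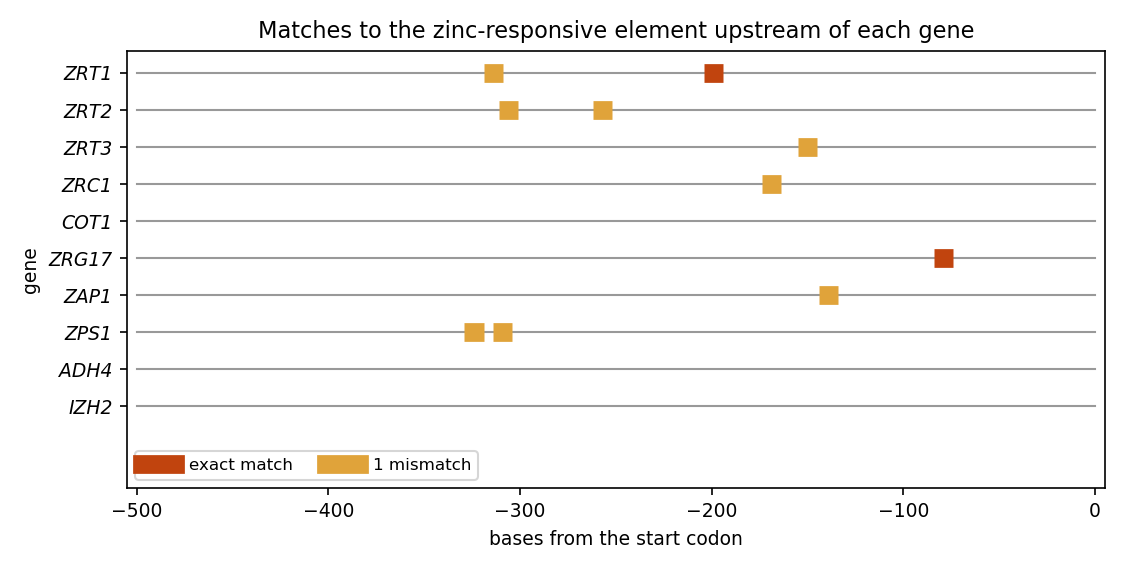
Position of matches to the zinc-responsive element in the 500 bases before the start codon of the 10 genes (x axis, bases from the start codon; 1 row per gene). Red bars mark exact matches and yellow bars matches with 1 mismatch; 7 genes have a match and ADH4, IZH2 and COT1 have none.

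ZRT2, ZAP1, COT1 and ZRC1 were called lower in the dChr strain, and no member was called higher. These 4 of 10 genes passed limma (adjusted p under 0.05 over all 5938 tested transcripts), where 9.16% of tested transcripts fell and 4.19% rose. There was no overlap between dChr and control libraries for 5 members, the 4 called genes and ZRG17, all lower in the dChr strain, against 21.2% of tested transcripts that were lower without overlap. Of the 10 fold changes 8 were negative, and their median was -0.36 on the log2 scale, beside -0.04 over all tested transcripts. Fold changes are of log2(TPM + 1), which understates the change of low genes such as ZAP1. Control library 2 stood apart in scale, with a median-ratio factor of 1.14 against 0.953 to 1.04 in the other 5 libraries. Without it ZRT2 and ZAP1 were still called lower, ZRC1 and COT1 were not called, and ZPS1 was called higher. In RNA from whole cultures, fewer cells that express a gene and less RNA per cell cannot be told apart.

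**Figure D2:**
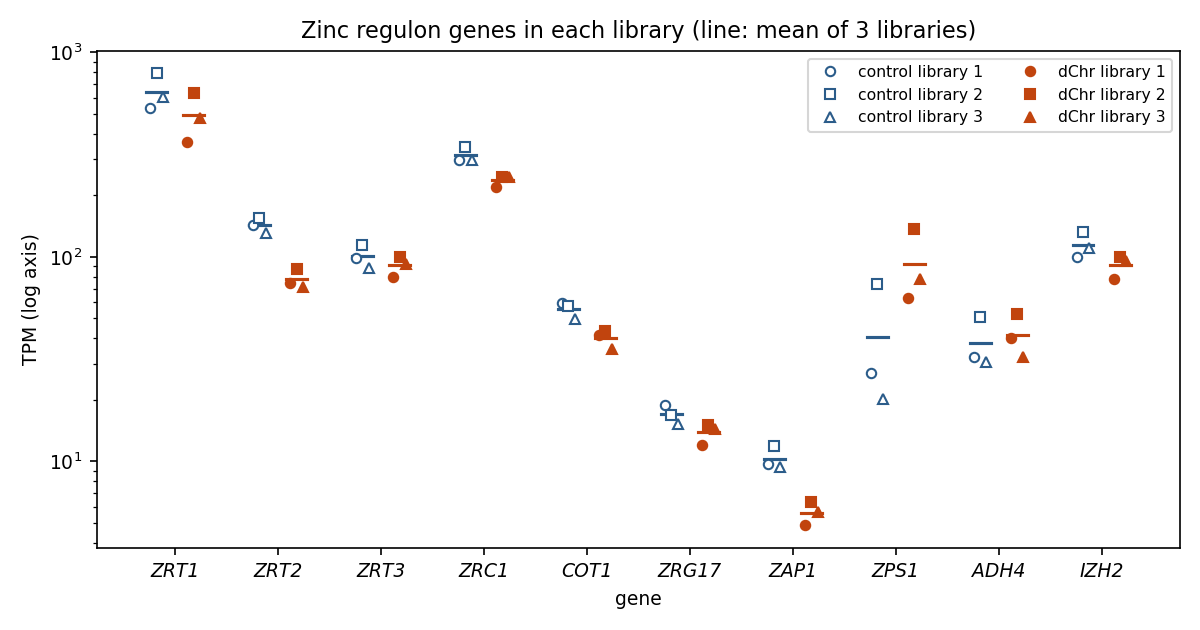
Level of each zinc gene in each library in TPM (y axis, log scale), with open blue symbols for the 3 control libraries and filled red symbols for the 3 dChr libraries; lines are means of 3. The groups stand apart for ZRT2, ZAP1, ZRC1, COT1 and ZRG17 and overlap for the other 5 genes.

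**Figure D3:**
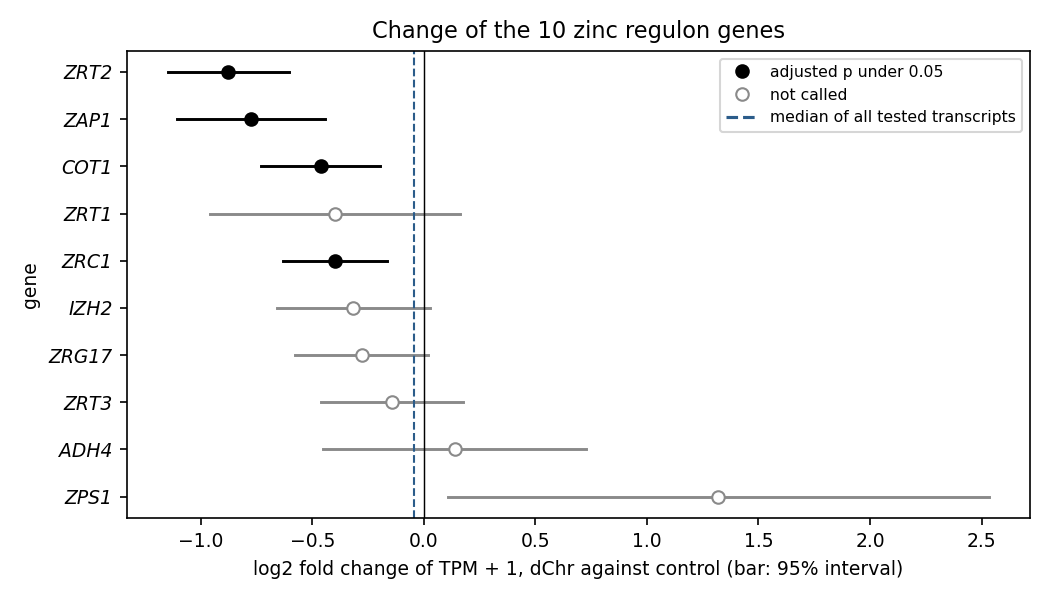
Log2 fold change of TPM + 1 for the 10 genes, dChr against control (x axis), with 95% intervals from limma. Filled points passed an adjusted p of 0.05 (ZRT2, ZAP1, COT1 and ZRC1, all lower), and the dashed line is the median of all tested transcripts at -0.04.

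The importers at the plasma membrane differed in call. ZRT2, the low-affinity zinc importer, was at 74.3, 87.4 and 70.9 TPM in dChr libraries 1, 2 and 3 and at 143, 155 and 130 TPM in control libraries 1, 2 and 3. Every dChr library was below every control library. The mean was 77.5 ± 8.75 TPM against 142.9 ± 12.4 (SD, n = 3), a log2 fold change of -0.88 ± 0.11 SE (limma adjusted p = 0.00479). The call of ZRT2 held under all 18 alternatives run, with log2 fold changes between -0.97 and -0.81.

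ZRT1, the high-affinity importer and the most abundant member, was at 364, 635 and 475 TPM in dChr libraries 1, 2 and 3 and at 531, 789 and 601 TPM in controls in the same order. The groups overlapped, since dChr library 2 lay above control libraries 1 and 3. Its log2 fold change of -0.40 ± 0.23 SE was not called (limma adjusted p = 0.329), with a 95% interval of -0.96 to 0.16 that takes in both no change and a fall of the size seen in ZRT2. ZRT1 made up 37.2% to 45.2% of the summed TPM of the 10 genes in a library. The ratio of ZRT1 to ZRT2 within a library averaged 6.29 ± 1.23 with dChr and 4.47 ± 0.701 without it (SD, n = 3). This difference was within what label permutation gives (exact permutation test, two-sided, p = 0.2, with 0.1 the smallest that 3 against 3 allows), so a difference in response between the importers was not shown.

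The vacuole takes up zinc through Zrc1 and Cot1 and releases it through Zrt3. ZRC1, which protects yeast from zinc excess, was at 220, 245 and 246 TPM in dChr libraries 1, 2 and 3 and at 297, 345 and 297 TPM in controls 1, 2 and 3. The groups did not overlap. Its mean was 236.9 ± 14.5 TPM against 313.1 ± 27.6 (SD, n = 3), a log2 fold change of -0.40 ± 0.10 SE (limma adjusted p = 0.0427). COT1, a relative of ZRC1 that carries zinc and cobalt, was at 41.3, 43.2 and 35.6 TPM in the dChr libraries and at 59.5, 57.3 and 49.8 TPM in controls 1, 2 and 3, again with no overlap. Its log2 fold change was -0.46 ± 0.11 SE (limma adjusted p = 0.0413).

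Both vacuolar import genes passed narrowly. With limma the call of ZRC1 did not survive leaving out any of the 6 libraries (adjusted p from 0.0667 without control library 1 to 0.155 without dChr library 1), without an intensity trend (0.0715) and without assembled transcripts (0.255). COT1 remained called when control library 3 was left out and lost its call when any of the other 5 was (adjusted p up to 0.130, for dChr library 3), without the trend (0.0637) and without assembled transcripts (0.186). Both stayed negative in every alternative. The ratio of ZRC1 to COT1 averaged 5.97 ± 0.824 with dChr and 5.66 ± 0.570 without it (exact permutation p = 0.6, two-sided).

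ZRT3, the vacuolar exporter, was at 80.0, 100 and 92.5 TPM in dChr libraries 1, 2 and 3 and at 99.1, 115 and 87.8 TPM in controls 1, 2 and 3. The groups overlapped and the log2 fold change was -0.14 ± 0.13 SE, with a 95% interval of -0.46 to 0.18 (limma adjusted p = 0.537). ZRG17, whose product works with Msc2 to bring zinc into the secretory pathway, was at 12.1, 15.0 and 14.5 TPM in the dChr libraries and at 18.9, 16.9 and 15.2 TPM in controls 1, 2 and 3. The lowest control library stood just above the highest dChr library. The log2 fold change of ZRG17 was -0.28 ± 0.12 SE and was not called (limma adjusted p = 0.206). The exact elements shown above lie before ZRT1 and ZRG17, neither of which was called. Of the called members, ZRT2, ZAP1 and ZRC1 have matches with 1 mismatch and COT1 has no match.

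ZAP1, the activator of the regulon, was the least abundant of the 10 genes. It was at 4.87, 6.34 and 5.63 TPM in dChr libraries 1, 2 and 3 and at 9.69, 11.9 and 9.37 TPM in controls 1, 2 and 3, without overlap. The mean level was 5.62 ± 0.736 against 10.3 ± 1.37 TPM (SD, n = 3), a ratio of 0.544, and the log2 fold change was -0.77 ± 0.14 SE (limma adjusted p = 0.0149). Without dChr library 1 or dChr library 3 the call was lost (adjusted p = 0.0604 and 0.0538), and it held without any other single library. The fall of ZAP1 and that of ZRT2 were close in size, at mean ratios of 0.544 and 0.542.

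ZPS1 and ADH4 had positive fold changes and wide spread. ZPS1, ADH4, ZRT1 and ZAP1 are all raised in zinc-starved yeast. Among them ZAP1 was called lower, while ZRT1, ZPS1 and ADH4 were not called. The zinc state of these cells was not tested. ZPS1 encodes a cell wall protein related to the zinc scavenger Pra1 of Candida albicans. It was at 63.1, 136 and 77.9 TPM in dChr libraries 1, 2 and 3 and at 27.1, 73.7 and 20.3 TPM in control libraries 1, 2 and 3. All dChr libraries were above control libraries 1 and 3, and control library 2 stood among the dChr libraries. The mean was 92.5 ± 38.8 against 40.4 ± 29.1 TPM (SD, n = 3), a log2 fold change of 1.32 ± 0.51 SE that was not called (limma adjusted p = 0.148). The 95% interval, 0.11 to 2.53, is not adjusted for the number of transcripts tested and does not take in no change. Without control library 2 the log2 fold change was 1.86 and was called by limma (adjusted p = 0.0344), and it was also called without assembled transcripts (0.0401). In all, 3 of the 18 alternatives called ZPS1, with limma adjusted p from 0.0336 to 0.328. This was the largest positive fold change among the 10 genes, higher than 98.6% of tested transcripts as a description.

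ADH4, an alcohol dehydrogenase unrelated in sequence to the other yeast alcohol dehydrogenases, was at 40.0, 52.3 and 32.3 TPM in the dChr libraries and at 32.4, 50.9 and 30.5 TPM in controls 1, 2 and 3. The groups overlapped, and the log2 fold change was 0.14 ± 0.25 SE, with a 95% interval of -0.45 to 0.73 (limma adjusted p = 0.767). This fold change was -0.038 without dChr library 2. IZH2, a membrane protein of the progestin and adipoQ receptor family, was at 78.0, 99.6 and 95.9 TPM against 99.2, 132 and 110 TPM. Its log2 fold change was -0.32 ± 0.14 SE (limma adjusted p = 0.213). Only dChr library 2 overlapped the controls for IZH2, and by less than 1 TPM.

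ZRT1, ZPS1 and ADH4 varied more between libraries of a strain than the other 7 genes. The residual SD on the log2 scale was 0.785 for ZPS1, 0.369 for ADH4 and 0.35 for ZRT1, and between 0.108 and 0.198 for the other 7. Of all tested transcripts 86.5% had a residual SD at or below that of ADH4. In the control strain ZPS1 was 3.64-fold higher in library 2 than in library 3, and in the dChr strain 2.16-fold higher in library 2 than in library 1.

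Library 2 was the highest of its strain for most members. This held for 8 of 10 genes in the control and 9 of 10 in the dChr strain, where 63.4% and 56.4% of all tested transcripts were highest in library 2. After median-ratio scaling, an alternative chosen after seeing the data, it held for 7 and 5 of the 10, against 29.3% and 31.1% of tested transcripts. ZRT1, ZAP1, ZPS1 and ADH4 were then still highest in library 2 of both strains, a pattern that 9.45% of tested transcripts had. The labels do not tie libraries of the same number together, and what sets library 2 apart was not tested.

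**Figure D4:**
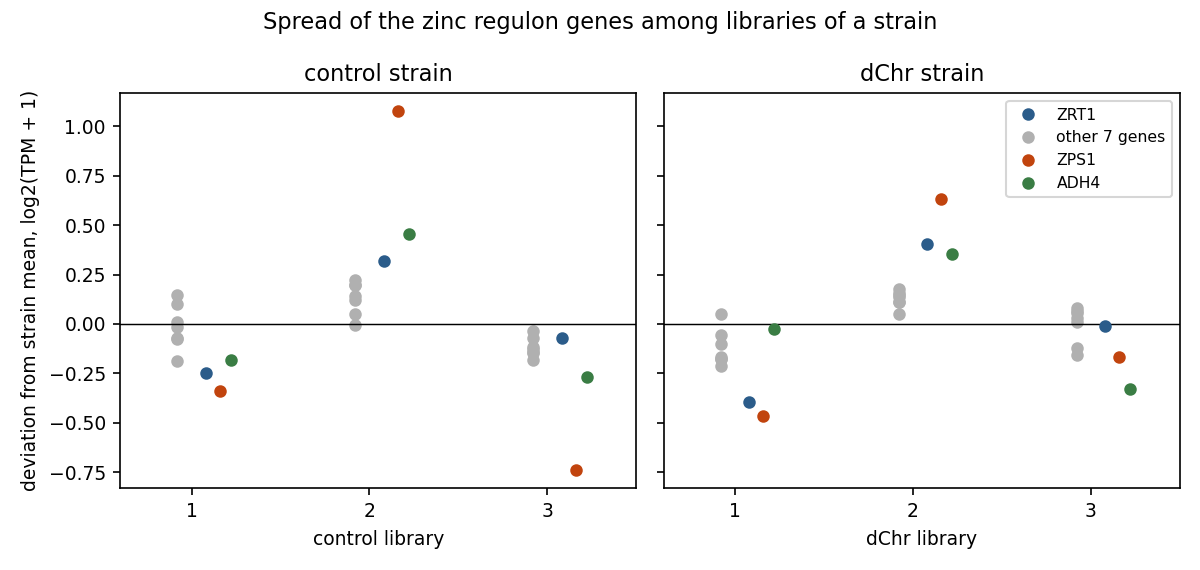
Deviation of each zinc gene from the mean of its strain in log2(TPM + 1) (y axis) in the 3 libraries of the control and of the dChr strain. ZPS1 (red), ADH4 (green) and ZRT1 (blue) spread most and lie above 0 in library 2 of each strain; grey points are the other 7 genes.

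Of 16 other genes known or reported as Zap1 targets, 1 fell and 0 rose, where 9.16% of tested transcripts fell and 4.19% rose. Some of the 16 lay little above the filter of 1 TPM, where the lack of a call says little. Their median log2 fold change was -0.05, beside -0.04 over all tested transcripts. At an unadjusted p under 0.05 limma had 4 of the 16, or 25.0%, near the 27.8% of all tested transcripts. The gene that fell was IZH1, a relative of IZH2. It was at 11.5, 15.3 and 12.8 TPM in dChr libraries 1, 2 and 3 and at 36.7, 38.1 and 26.4 TPM in controls 1, 2 and 3, with no overlap and a log2 fold change of -1.28 ± 0.17 SE (limma adjusted p = 0.00539).

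Chosen after their values were seen, the other 3 with an unadjusted p under 0.05 were ICY2 (named ATG41 in the reference), MCD4 and ZRG8. ICY2 had a log2 fold change of 0.56 (limma adjusted p = 0.0907) and was called in the robust fit. MCD4, a glycolipid anchor synthesis gene with an exact element in its window, had -0.37 (adjusted p = 0.0879) and was called without control library 1. ZRG8 had 0.41 (adjusted p = 0.164) and was called with quantile normalization.

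The IZH family thus held called genes outside the 10. Among 4 other zinc transport and response genes (YKE4, MSC2, IZH3 and IZH4) 1 fell and 0 rose, against the same 9.16% and 4.19% of tested transcripts. IZH3 was at 83.3, 101 and 88.0 TPM in dChr libraries 1, 2 and 3 and at 240, 220 and 192 TPM in controls 1, 2 and 3. Its log2 fold change was -1.25 ± 0.12 SE (limma adjusted p = 0.00142). IZH1 and IZH3 held their calls under all 18 alternatives. IZH4, at a mean of 1.66 and 1.84 TPM, was too low to compare closely.

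Enzymes that bind zinc formed the last list. Of 9 such genes 3 fell and 0 rose, again beside 9.16% and 4.19% of tested transcripts, and their median log2 fold change was 0.00. ADH5, an alcohol dehydrogenase isoenzyme, was at 21.2, 24.3 and 23.1 TPM in the dChr libraries and at 130, 104 and 85.5 TPM in controls 1, 2 and 3. Every control library was far above the dChr libraries, and the log2 fold change was -2.15 ± 0.16 SE (limma adjusted p = 0.00071). ADH3, the mitochondrial alcohol dehydrogenase, fell from 439.7 ± 42.5 to 305.2 ± 9.11 TPM (SD, n = 3; limma adjusted p = 0.0167), a call lost without any single dChr library (0.0587 to 0.0721) and without assembled transcripts (0.123). PHO8, the vacuolar alkaline phosphatase, which was named after its values were seen, fell by 0.48 on the log2 scale (limma adjusted p = 0.0391), a call lost without any single library, with either other scaling and in 4 further alternatives.

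ADH1, the main fermentative alcohol dehydrogenase, and ADH3, called lower above, are zinc enzymes that are repressed in zinc-starved cells. ADH1 averaged 8838 ± 570.2 TPM with dChr and 8732 ± 204.1 TPM without it (SD, n = 3). Its log2 fold change was 0.02 with a 95% interval of -0.25 to 0.28 (limma adjusted p = 0.946), and the sign turned under quantile normalization, without mitochondrial and non-coding transcripts and without dChr library 1. The ratio of ADH4 to ADH1 in a library averaged 0.00475 ± 0.00143 with dChr and 0.00436 ± 0.00138 without it (exact permutation p = 0.6, two-sided).

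**Figure D5:**
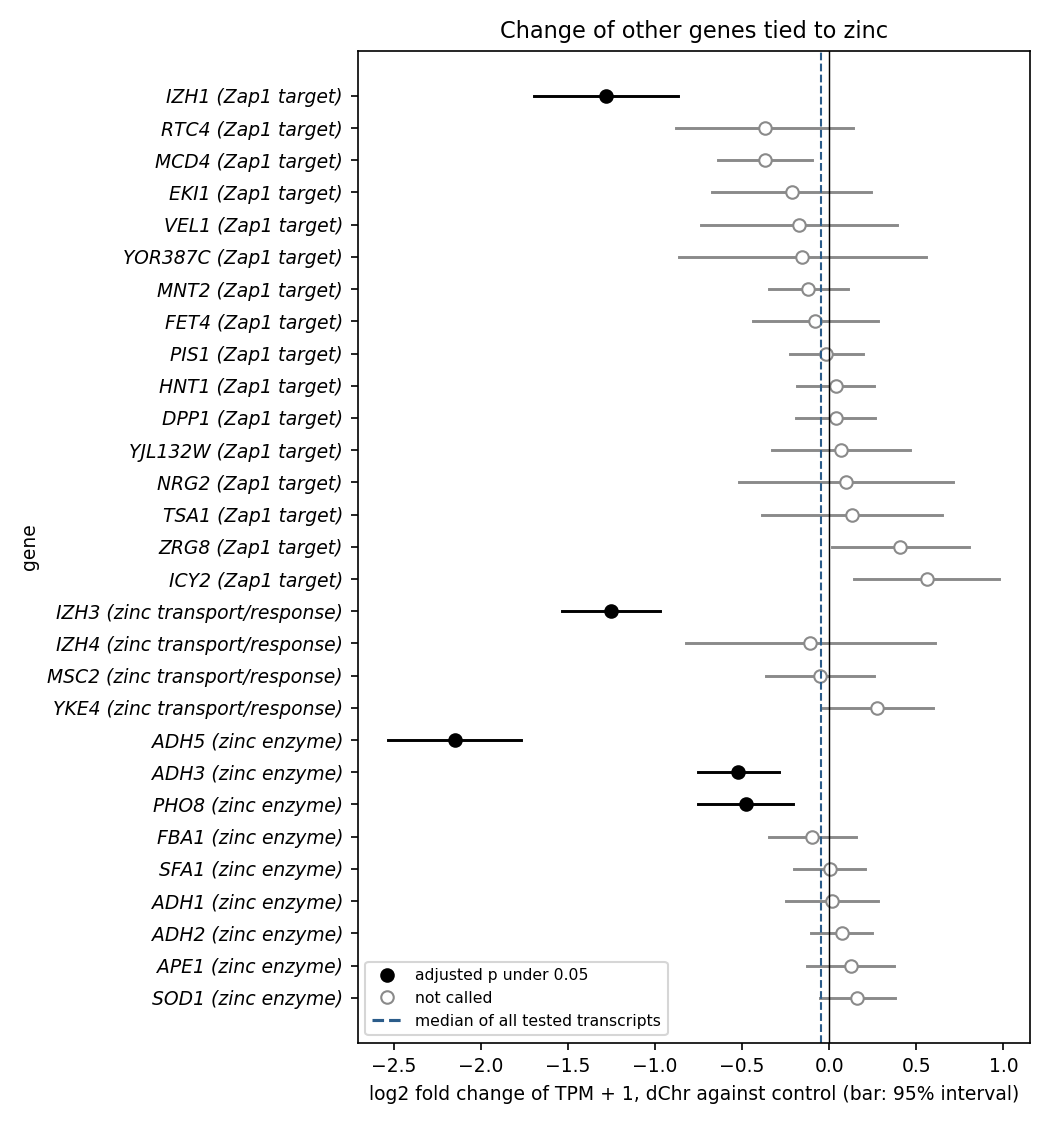
Log2 fold change of TPM + 1 with 95% limma intervals for the 29 other genes tied to zinc, grouped as further Zap1 targets, zinc transport and response genes, and zinc enzymes. Filled points passed an adjusted p of 0.05 (IZH1, IZH3, ADH5, ADH3 and PHO8, all lower).

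Each of the 10 genes has a single coding exon, and no other annotated gene overlaps any of them on R64. ZRT2 lies at chromosome XII 402794 to 404062, ZAP1 at chromosome X 330431 to 333073, ZRC1 at chromosome XIII 754838 to 756166 and COT1 at chromosome XV 906236 to 907555, all on the minus strand. ADH4, at 15159 to 16307, and ZRT1, at 20978 to 22108, lie near the left end of chromosome VII on the plus strand, with the non-coding gene SUT532 between them. ZPS1 lies at chromosome XV 34658 to 35407, ZRT3 at chromosome XI 118793 to 120304, IZH2 at chromosome XV 323411 to 324364 and ZRG17 at chromosome XIV 697614 to 699431.

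The reported neighbours of the 4 called members did not follow a single direction. DIP2, a ribosome biogenesis gene that ends 305 bases from the end of ZRT2 on the opposite strand, fell from 24.9 ± 3.15 to 12.0 ± 1.31 TPM (SD, n = 3; limma adjusted p = 0.00498). The strand setting of the counting is not given, so reads that run past a gene's end could be shared between ZRT2 and DIP2, and this was not tested. IKS1, which follows ZAP1 on the same strand after 309 bases, rose from 10.6 ± 1.75 to 18.2 ± 2.69 TPM (limma adjusted p = 0.0269), opposite to ZAP1, a call lost without dChr library 1 or 2 or control library 1 or 3 (0.0688 to 0.0884). LOG1 beside ZAP1 (-0.09) and SFG1 (-0.49) and YOR316C-A (-0.09) beside COT1 were not called (limma adjusted p = 0.706, 0.307 and 0.876), and SFG1 was called without control library 1 (0.0476). The neighbours of ZRC1, YMR242W-A and YMR244W, did not reach the filter on mean TPM.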

How the data were processed

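The authors deposited a single table of TPM for 7554 transcripts in 6 libraries, 3 per strain. The submitters' processing notes name cutadapt 2.6, HISAT2 2.0.5, StringTie 2.0, DESeq2, R 3.6.0 and the sacCer3 build. They do not give the step each tool served, and the strand setting and filters are likewise not given in the sources used here. Values of TPM hold no read depth, so no counting interval or floor is given and depth is unknown. Library sums lie between 970077 and 992087 TPM, and some transcripts are not analysed here.

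The 5938 transcripts that averaged 1 TPM or more were tested as log2(TPM + 1) with limma 3.58.1 in R 4.3.3, using eBayes with a trend, two-sided, with Benjamini-Hochberg adjustment over all of them and a threshold of 0.05. The fit was also run on simulated data with independent noise for each transcript and no difference in scale between libraries. That run says nothing of effects of scale such as that of control library 2. Ratios within a library were compared by exact permutation. Gene positions and upstream sequences came from RefSeq R64. The members and the gene lists were chosen with earlier results of these data known. The text names all 10 members, ADH1, the neighbours of called members and, from each other list, the 2 called genes with the smallest p in each direction; exceptions are marked, and 1 neighbour is not reported here. The 18 alternatives changed the pseudocount (0.1 or 5), the filter, the scaling, the transcripts kept, the variance model or the weights, added a replicate block, or left out a library. Scripts ran in Python 3.11.15; figures were drawn with matplotlib 3.10.9.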

Additional observations from a re-analysis of the deposited data

How the results depend on the processing

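The falls of ZRT2, IZH1, IZH3, ADH5 and DIP2 held in all 18 alternatives, and no called gene changed direction. Members that fell numbered 2 without assembled transcripts and 2 without the intensity trend, 3 at a mean of at least 10 TPM (where ZAP1 was not tested), and 1 to 3 with a library left out. Members that rose numbered 1 (ZPS1) without assembled transcripts and 0 to 1 with a library left out. The cause was not tested, beyond the fewer samples or transcripts in some fits. Over all transcripts, 507 rose with median-ratio scaling, 555 with quantile normalization and 151 without assembled transcripts, where 360 fell. With a library left out, 113 to 262 rose and 282 to 417 fell. Of other Zap1 targets 1 rose with quantile normalization (ZRG8) and 1 in the robust fit (ICY2), and 1 to 2 fell with a library left out. Of zinc enzymes 1 fell without assembled transcripts and 1 to 2 with a library left out.

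Signs turned only in uncalled values. With a library left out, log2 fold changes ranged from -0.038 to 0.365 for ADH4, from -0.026 to 0.066 for ADH1 and from -0.309 to 0.118 for YOR316C-A. ADH1 was at -0.26 with quantile normalization and -0.068 without mitochondrial and non-coding transcripts, and LOG1 at 0.035 with quantile normalization. The log2 difference in the ratio of ZRC1 to COT1 ranged from -0.036 to 0.149 and that of ADH4 to ADH1 from -0.105 to 0.374 with a library left out.

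With a replicate block 5 members fell, ZRT1 among them (limma adjusted p = 0.0465), and 1 rose, ZPS1 (0.0336), while over all transcripts 268 rose and 566 fell. No label ties a replicate number to a shared day. Deviations from the strain mean correlated at 0.09, -0.08 and 0.12 between libraries of equal number, so pairing is not shown, and some libraries correlated better with another number. The permutation within pairs gave p = 0.25 for ZRT1 to ZRT2, 0.5 for ZRC1 to COT1 and 0.25 for ADH4 to ADH1, where 0.25 is the smallest it can give.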
